A study of Mus musculus with 66 samples.

Results

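The comparison is between hippocampi of mice of the inbred strain C57BL/6, taken 3 months after injection of brain extract from Alzheimer's disease cases (AD) and after injection of control brain extract (Ctrl). The libraries were chosen by their labels, 3-month-old mice (3mo) and 3 months post injection (mpi): 5 AD libraries and 5 Ctrl libraries, 10 of the 66 in the series. Both groups are labelled as the same strain, age, tissue and time, no transgene is named, and both were injected, so no uninjected group enters the comparison. Whether the age is that at injection or at collection, how many donors gave each extract, and whether 1 animal gave 1 library is not in the labels. The p-values therefore rest on the variation among libraries, which may be partly technical. In 19976 genes past a filter on low counts, AD and Ctrl libraries differed in none at an adjusted p under 0.05 (limma, Benjamini-Hochberg), which is 0% of the genes tested. The results are therefore mainly levels, and which libraries set them.

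Tau, encoded by Mapt, is a microtubule-binding protein of neurons. In seeded tauopathy, aggregates in an injected extract act as templates on which the tau of the host misfolds, and the series title names this model. Microglia and astrocytes commonly respond to such aggregates with complement, lysosomal and interferon-stimulated genes. The libraries are bulk poly(A) RNA, so fewer cells of a type and less RNA per cell cannot be told apart.

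The recovered depth was 44463718 to 55434005 reads in the AD libraries and 44934335 to 51874742 reads in the Ctrl libraries. The deposited values are RPM (reads scaled to a fixed library total) divided by the scaling factor of each library, called scaled RPM here, and fold changes are differences of log2(value + 1), which understates the change of low genes. The median standard error (SE) of a fold change was 0.0793 over all tested genes and 0.0618 over the 6328 genes with a mean log2 level of at least 5. Region markers of the labelled tissue were present in every library: Prox1, a transcription factor of dentate granule neurons, ran from 72.2 to 133 in AD and from 69.0 to 119 in Ctrl, and Fibcd1, a gene of CA1 pyramidal neurons, from 125 to 158 in AD and from 136 to 172 in Ctrl. Sex is not labelled, and Xist, the RNA that silences an X chromosome in females, exceeded 100 scaled RPM in 2 AD libraries (1 and 3) and 1 Ctrl library (3).

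The gene with the smallest p-value was mt-Atp8, which encodes a small subunit of ATP synthase and lies on the mitochondrial genome (GRCm38 chromosome M, 7766 to 7969, plus strand). Its annotated sequence is printed because part of it is shared with another gene. It is 204 nucleotides long in GENCODE vM21, which need not be the length of the RNA. The 43 bases in capitals, positions 162 to 204 from its 5′ end, are also the start of mt-Atp6, the next subunit gene. mt-Atp6 is annotated on the same strand (7927 to 8607), so the annotated genes overlap and may not be separate RNAs.

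mt-Atp8: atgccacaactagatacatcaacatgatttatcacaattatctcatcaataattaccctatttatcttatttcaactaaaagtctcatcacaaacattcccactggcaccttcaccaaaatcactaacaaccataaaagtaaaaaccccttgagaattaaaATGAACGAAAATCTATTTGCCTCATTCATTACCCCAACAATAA

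mt-Atp8 had 10.9, 10.1, 9.72, 7.34 and 11.7 scaled RPM in AD libraries 1 to 5, against 4.87, 6.35, 4.36, 6.53 and 6.50 in Ctrl libraries 1 to 5. Every AD value lay above every Ctrl value. The log2 fold change was 0.70 ± 0.14 (SE, 95% interval 0.42 to 0.99), with a limma adjusted p = 0.438. DESeq2 on the recovered reads called it, alone among all genes, at an adjusted p = 0.00634, and edgeR's quasi-likelihood test called no gene. Over all settings tried its adjusted p (limma, edgeR or DESeq2) ran from 0.00634 to 0.999. The same difference was 0.03 at 1 mpi and 0.07 at 5 mpi in mice of the same cohort, and 0.10 at 3 mpi in the 12-month-old (12mo) mice.

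3 other short genes of the mitochondrial genome had higher means in AD without passing the test. mt-Nd4l, a subunit of respiratory complex I, had 5.14, 4.90, 4.39, 3.30 and 5.87 in AD, against 3.39, 3.29, 2.40, 3.63 and 3.08 in Ctrl. Its log2 fold change was 0.45 ± 0.14 (SE, limma adjusted p = 0.961), and only AD library 4 fell within the Ctrl range. mt-Nd3, another complex I subunit, averaged 8.03 ± 0.510 in AD and 6.66 ± 1.13 in Ctrl (SD, n = 5 each), with no overlap and a log2 fold change of 0.25 ± 0.10 (SE, limma adjusted p = 0.961). mt-Nd6, a complex I subunit with an annotated length of 519 nucleotides, had 83.9, 72.5, 79.2, 90.3 and 65.5 in AD, against 69.7, 59.0, 49.8, 75.1 and 84.4 in Ctrl. These groups overlapped, and its log2 fold change was 0.22 ± 0.20 (SE, limma adjusted p = 0.961).

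The abundant mitochondrial messages mt-Nd1 and mt-Co1 showed no such difference in level, and neither did the less abundant mt-Atp6. mt-Nd1 had 5562 to 6217 in AD and 4896 to 6473 in Ctrl, and mt-Co1, the catalytic subunit of cytochrome c oxidase, 19530 to 20955 in AD and 18761 to 21635 in Ctrl. mt-Atp6, which shares the capital bases with mt-Atp8, averaged 26.3 ± 1.61 in AD and 25.5 ± 4.26 in Ctrl (SD, n = 5 each), a log2 fold change of 0.06. The fold changes of mt-Nd1 (0.04) and mt-Atp6 turned negative without Ctrl library 3. Of the 13 protein genes of the mitochondrial genome 10 had a positive fold change, with a median of 0.04, and between 5 (without Ctrl library 3) and 11 did when 1 library was left out.

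Several of these genes have copies in the annotation. Pseudogenes on chromosome 1 repeat mt-Nd4l (Gm10222, 294 of 297 bases at 100% identity), mt-Nd3 (Gm28438, 345 of 348 bases at 99.71% identity) and mt-Atp6 (Gm10925, 678 of 681 bases at 100% identity). Among annotated transcripts mt-Atp8 matched only mt-Atp6 and Gm10925, over the 43 shared bases. Sequence outside annotated transcripts was not searched, so a copy of the rest of mt-Atp8 there would be missed. On chromosome 1 that includes the bases between 24614651 (Gm10925) and 24614885 (Gm28661, a copy of mt-Co2). How the authors assigned reads between such copies is not given in the sources used here, so the values of these genes are uncertain.

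**Figure D1:**
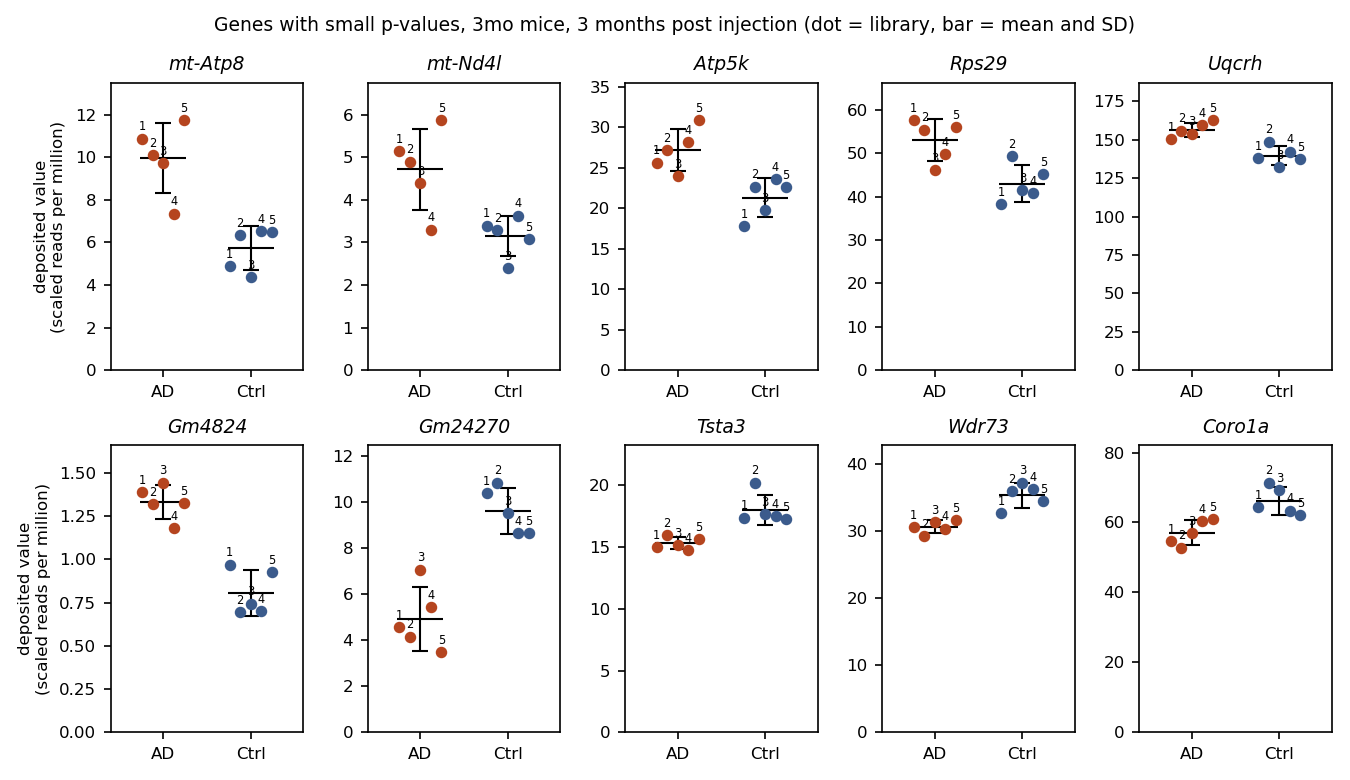
Scaled RPM of 10 genes in each library (y axis, from 0), AD left of Ctrl, with library numbers beside the points and the mean and SD of 5 libraries as a cross. mt-Atp8, Atp5k, Uqcrh and Gm4824 have every AD library above every Ctrl library, Gm24270, Tsta3, Wdr73 and Coro1a have every AD library below, and in mt-Nd4l and Rps29 the groups overlap.

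Across all genes, AD and Ctrl libraries did not overlap with AD higher in 138 genes (0.691% of those tested) and with AD lower in 276 (1.38%). At an unadjusted p under 0.05, 431 genes were higher in AD (2.16%) and 479 lower (2.40%), 910 in all against 998.8 that the threshold alone would give. The median log2 fold change over all genes was -0.0028, and 48.7% were above 0. The 910 became 2025 when the fit was restricted to the 10 libraries, without the spread of the 1 and 5 mpi groups, and none then passed either (smallest limma adjusted p = 0.409).

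8 genes differed by more than 1 on the log2 scale, and none of these was near the threshold. 4 of them were sex-linked (Xist, Kdm5d, Ddx3y and Eif2s3y). 3 were hormone genes of the pituitary, named here after their values were seen: Prl (prolactin), Gh (growth hormone) and Pomc (the precursor of adrenocorticotropin). Prl had 88.1, 6.27, 265, 0.940 and 0.697 in AD, against 0.265, 4.76, 42.3, 0.0424 and 0.380 in Ctrl. Gh had 36.4, 6.29, 78.7, 4.63 and 2.56 in AD, against 0.573, 26.0, 14.8, 0.0424 and 0.780 in Ctrl. Both hormones were highest in AD libraries 1 and 3 and, among Ctrl libraries, in 2 and 3. Similar spread was present at 1 mpi, where Prl ran from 0.121 to 151 in AD and from 0.243 to 24.6 in Ctrl. The last, Igkv10-96, an immunoglobulin segment, had a log2 fold change of 1.22 (limma adjusted p = 0.961).

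Nuclear genes of the respiratory chain and the ribosome were among the genes with the smallest p-values on the higher side. Atp5k, a subunit of ATP synthase, had 25.6, 27.2, 23.9, 28.2 and 30.8 in AD, against 17.8, 22.7, 19.8, 23.6 and 22.6 in Ctrl (log2 fold change 0.34 ± 0.09, SE). Uqcrh, a subunit of complex III, had 151, 156, 154, 160 and 163 in AD, against 138, 149, 132, 142 and 137 in Ctrl (0.16 ± 0.04). Neither pair of groups overlapped. Rps29, a protein of the small ribosomal subunit, averaged 53.0 ± 4.86 in AD and 43.1 ± 4.31 in Ctrl (SD, n = 5 each), with overlap.

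Rps28 (0.27), Rpl19 (0.23), Cox7c (0.20), Rpl37 (0.19) and Ndufb8 (0.17) had positive log2 fold changes too. Median annotated lengths were 744 nucleotides for Rpl19 and 835 for Rpl37. Naca (0.12), a chaperone of nascent chains, and Snhg8 (0.32), a host gene of a small nucleolar RNA, were also positive. The limma adjusted p of these genes lay between 0.865 (Uqcrh) and 0.961. Together with Atp5k, Uqcrh and Rps29 their fold changes ran from -0.04 (Atp5k) to 0.12 (Rps28) at 1 mpi, from -0.19 (Snhg8) to 0.04 (Rpl37) at 5 mpi, and from -0.19 (Snhg8) to -0.01 (Naca) in 12mo mice at 3 mpi.

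Other members of the same machines had lower means in AD. Rps2 averaged 230 ± 6.98 in AD and 251 ± 13.4 in Ctrl, and Rps3 246 ± 11.9 in AD and 263 ± 8.03 in Ctrl (SD, n = 5 each). Atp5a1, the alpha subunit of ATP synthase, had 859, 839, 830, 870 and 874 in AD, against 877, 933, 940, 904 and 909 in Ctrl, with no overlap (log2 fold change -0.09, limma adjusted p = 0.961). Uqcrc1, a core subunit of complex III with a median annotated length of 533 nucleotides, had a log2 fold change of -0.13. Atp5a1 and Uqcrc1 were picked after their values were seen.

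Genes were split by annotated message length, a split chosen after the values were seen. The length is the median over a gene's annotated protein-coding messages. It need not be that of the message expressed, so the side on which a gene falls is uncertain. Under 600 nucleotides 18 of 25 Rps and Rpl genes had a positive fold change (median 0.07), against 18 of 51 at 600 or over (median -0.02). Among Nduf, Uqcr, Cox and Atp5 genes the counts were 22 of 32 under 600 (median 0.04) and 17 of 45 at 600 or over (median -0.03). Under 600 nucleotides, 3 Rps and Rpl genes and 5 of the others did not overlap with AD higher and none with AD lower. At 600 or over, 1 Rps or Rpl gene did not overlap with AD higher, and 2 of the others with AD lower. Over all genes tested those shares were 0.691% with AD higher and 1.38% with AD lower. Over all protein-coding genes with a mean log2 level of at least 1, the 25 shortest (under 400 nucleotides) had a median of 0.07 with 64% above 0 and 12% not overlapping with AD higher, and the 408 genes of 400 to 600 nucleotides a median of 0.0011 with 50.7% above 0, 2.94% not overlapping with AD higher and 1.72% with AD lower. For the 25 shortest, library medians of the deviation from the mean of the 10 libraries overlapped between groups. They ran from -0.04 to 0.08 in AD and from -0.08 to 0.01 in Ctrl. Longer genes gave no steady trend. At 1000 to 2000 nucleotides 39.8% of 3447 genes were above 0 (median -0.02), and at 4000 or over 52.9% of 2691 were (median 0.005). The labels give a selection of fragments near 360 bp before amplification, and whether that step differed between libraries was not tested.

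**Figure D2:**
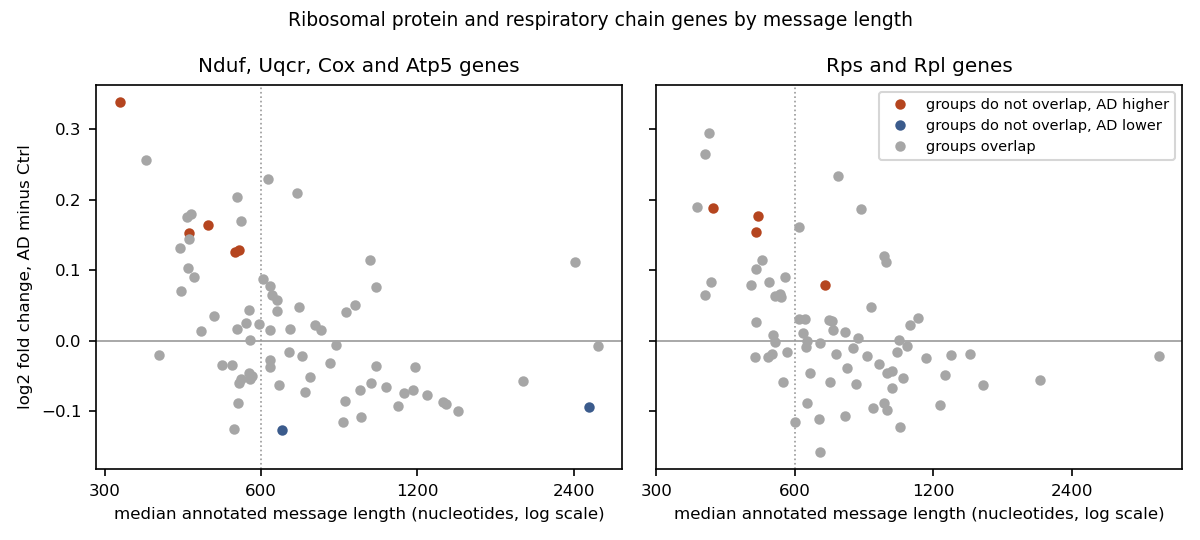
Log2 fold change, AD minus Ctrl (y axis), against the median annotated length of each gene's messages in nucleotides (x axis, log scale) for respiratory chain genes (left) and ribosomal protein genes (right). The dotted line is 600 nucleotides, and the genes with AD higher and no overlap lie mostly left of it.

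Among other genes with the smallest p-values, Ago3, an Argonaute protein that binds small RNAs, averaged 66.1 ± 3.80 in AD and 56.9 ± 4.67 in Ctrl (SD, n = 5 each; log2 fold change 0.21, limma adjusted p = 0.865). Mtr, methionine synthase, had a log2 fold change of 0.17 and Mdm1 one of 0.23. On the lower side Tsta3, an enzyme of GDP-fucose synthesis, had 15.01, 16.0, 15.1, 14.8 and 15.6 in AD, against 17.4, 20.2, 17.6, 17.5 and 17.2 in Ctrl, with no overlap (log2 fold change -0.22). Wdr73 (-0.20), Csrnp2 (-0.22), Trnau1ap (-0.24), Smyd2 (-0.17) and Coq2 (-0.14), an enzyme of ubiquinone synthesis, did not overlap either. Coro1a, an actin-binding protein abundant in immune cells and neurons, averaged 57.1 ± 3.49 in AD and 66.1 ± 3.98 in Ctrl (SD, n = 5 each), again with no overlap (-0.21). Rps3a2 (-0.33), Cdh15 (-0.37), Jtb (-0.15), Klhdc9 (-0.30) and Ntmt1 (-0.19) complete the 12 smallest p-values on the lower side. Of these Rps3a2 is annotated as a processed pseudogene.

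Among the non-overlapping genes with the largest differences, Fam129a (0.43), Maff (0.40), a small Maf transcription factor, and Slc43a3 (0.35) were higher, with Scube2 and Trim5 at 0.34 each. Creb5 (-0.39) and Nkx6-2 (-0.35), a transcription factor of oligodendrocytes, were lower, with Cdc42ep2 (-0.33), Egfl6 (-0.31), Dipk1c (-0.29), Flywch2 (-0.27) and Dact2 (-0.24). In each of these the limma adjusted p was 0.961.

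Gene models, left out of the rule for naming and named after their values were seen, were frequent among the smallest p-values. Gm4824, a processed pseudogene on chromosome 15, had 1.39, 1.32, 1.44, 1.18 and 1.32 in AD, against 0.970, 0.693, 0.744, 0.700 and 0.928 in Ctrl (log2 fold change 0.37, limma adjusted p = 0.438). Gm24270, a 57-base microRNA gene inside Peak1 on the same strand of chromosome 9, had 4.57, 4.16, 7.08, 5.44 and 3.49 in AD, against 10.4, 10.9, 9.55, 8.68 and 8.67 in Ctrl (log2 fold change -0.86, limma adjusted p = 0.865). Lower values were also given by the pseudogenes Gm8325 (-0.42), Gm1821 (-0.51) and Morf4l1-ps1 (-0.46). Reads of a pseudogene and its parent, or of a small gene and the intron around it, may not be separable under the authors' counting.

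The list with the largest median was that of genes induced by glucocorticoids, the adrenal stress hormones. Of its 18 genes 16 had a positive fold change (median 0.32), and none passed. At an unadjusted p under 0.05 (limma) 2 of the 18 were higher in AD, beside 2.16% of all genes tested. Sgk1, a kinase that is an early target of the receptor, had 223, 200, 206, 127 and 73.4 in AD, against 101, 105, 133, 132 and 101 in Ctrl (log2 fold change 0.43 ± 0.24, SE, limma adjusted p = 0.961). Tsc22d3, the leucine zipper protein GILZ, had 137, 98.4, 91.5, 70.9 and 57.5 in AD, against 62.8, 74.4, 74.4, 65.3 and 61.1 in Ctrl. In both, AD libraries 1, 2 and 3 lay above all Ctrl libraries and AD library 5 below them.

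Other members differed in which AD libraries were high. Zbtb16 had 90.3, 72.1, 81.6, 55.8 and 62.0 in AD and 51.8 to 61.4 in Ctrl. Mt2, a metal-binding metallothionein, had 136, 106, 162, 102 and 114 in AD, against 80.4, 97.3, 90.4, 92.9 and 98.2 in Ctrl. It was the 1 member of 18 whose groups did not overlap, beside 0.691% of all genes tested with AD higher. Nfkbia (0.31), Mt1 (0.32), Fkbp5 (0.20), Cdkn1a (0.43) and Arrdc2 (0.41) were positive, and Dusp1, also an activity gene, was at -0.21. Lcn2, a secreted iron carrier, reached 12.5 in AD library 3 and at most 1.24 in the other 9 libraries.

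Averaged over the 18 genes, the log2 level was 5.51, 5.18, 5.43, 4.92 and 4.76 in AD libraries 1 to 5, and 4.83 to 4.97 in Ctrl. The median fold change lay between 0.22 (without AD library 1) and 0.40 (without AD library 5) when 1 library was left out. It was 0.03 at 1 mpi, 0.34 at 5 mpi, and 0.02 in 12mo mice at 3 mpi. 2 of the 3 libraries with high scores, AD 1 and AD 3, are those with high Xist and high pituitary hormones, and Ctrl library 3, with high Xist and Prl at 42.3, had a score of 4.97. A fit with a sex-linked covariate called 0 genes over all tested (777 at an unadjusted p under 0.05, smallest limma adjusted p = 0.814). How far sex set the values of this list is not given here, and the part of the hormones was not tested. Per2, a clock gene outside this list, had no overlap as well, at 39.0 to 50.4 in AD and 33.1 to 36.5 in Ctrl. It was the 1 such member of 15 circadian genes, beside 0.691% of all genes with AD higher. Of these 15 genes 7 had a positive fold change (median -0.0080).

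Chaperones of the endoplasmic reticulum, which fold secreted proteins, were high in the same 3 AD libraries. Hspa5, the Hsp70 of that compartment, had 363, 335, 430, 267 and 261 in AD, against 261, 256, 301, 246 and 278 in Ctrl (log2 fold change 0.28 ± 0.14, SE, limma adjusted p = 0.961). Pdia4 had 53.3, 47.4, 56.6, 44.1 and 42.7 in AD, against 40.6, 38.0, 45.4, 38.4 and 43.8 in Ctrl. Creld2 (0.20), Manf (0.21), Sdf2l1 (0.24) and Xbp1 (0.17), named after their values were seen, each had their highest value in AD library 1, 2 or 3. Over the list of unfolded protein and integrated stress response genes 11 of 15 were positive and 4 negative (median 0.15). Trib3, a pseudokinase, was the 1 member of 15 at an unadjusted p under 0.05 (limma), beside 2.16% of all genes with AD higher. It averaged 0.929 ± 0.117 in AD and 0.591 ± 0.201 in Ctrl (SD, n = 5 each).

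Promoters of these genes were searched for known motifs, on both strands, in windows of 250 bases before to 50 after the start (RefSeq, GRCm38.p6). The endoplasmic reticulum stress element, read as CCAAT and CCACG 9 bases apart, was in 2 of the 14 listed genes with a promoter, Hspa5 and Creld2, and in at least 1 window of 0.137% of 27025 genes. A gene can have several windows, but each of these 14 had 1, and 0.119% of all 32851 windows held the element. A glucocorticoid receptor element read as ACANNNTGT was in 4 of 17 glucocorticoid genes with a promoter (Lcn2, Map3k6, Mt1 and Sgk1) and in 7.90% of all genes. By window it was in 5 of the 27 windows of these 17 genes and in 6.85% of all windows. A metal response element read as TGCNCNC was in 13 of the 17 glucocorticoid genes, in 9 of the 14 stress genes and in 53.6% of all genes. A match is a description of the letters only. The 3 promoters below show the matches in capitals, the stress element in Hspa5 (chr2:34771840-34772139) and Creld2 (chr15:88819396-88819695, opposite strand) and the receptor element in Mt1 (chr8:94178839-94179138), all on the plus strand of GRCm38.p6.

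Hspa5: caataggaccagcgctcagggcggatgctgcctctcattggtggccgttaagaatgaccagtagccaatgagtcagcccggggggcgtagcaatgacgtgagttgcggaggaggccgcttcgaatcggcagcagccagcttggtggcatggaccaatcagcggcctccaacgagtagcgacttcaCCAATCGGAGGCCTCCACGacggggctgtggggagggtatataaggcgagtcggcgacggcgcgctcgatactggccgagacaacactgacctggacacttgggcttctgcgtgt

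Creld2: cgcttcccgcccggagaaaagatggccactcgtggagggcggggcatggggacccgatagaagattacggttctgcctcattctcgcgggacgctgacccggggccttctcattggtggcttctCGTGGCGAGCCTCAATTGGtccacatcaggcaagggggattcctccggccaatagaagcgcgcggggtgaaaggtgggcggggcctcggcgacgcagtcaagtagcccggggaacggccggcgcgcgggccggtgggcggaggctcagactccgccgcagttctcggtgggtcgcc

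Mt1: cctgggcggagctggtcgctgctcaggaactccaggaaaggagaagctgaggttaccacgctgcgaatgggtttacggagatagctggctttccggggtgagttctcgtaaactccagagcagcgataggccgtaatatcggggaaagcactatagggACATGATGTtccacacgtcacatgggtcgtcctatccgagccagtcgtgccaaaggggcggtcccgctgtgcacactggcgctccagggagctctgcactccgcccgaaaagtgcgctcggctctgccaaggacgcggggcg

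**Figure D3:**
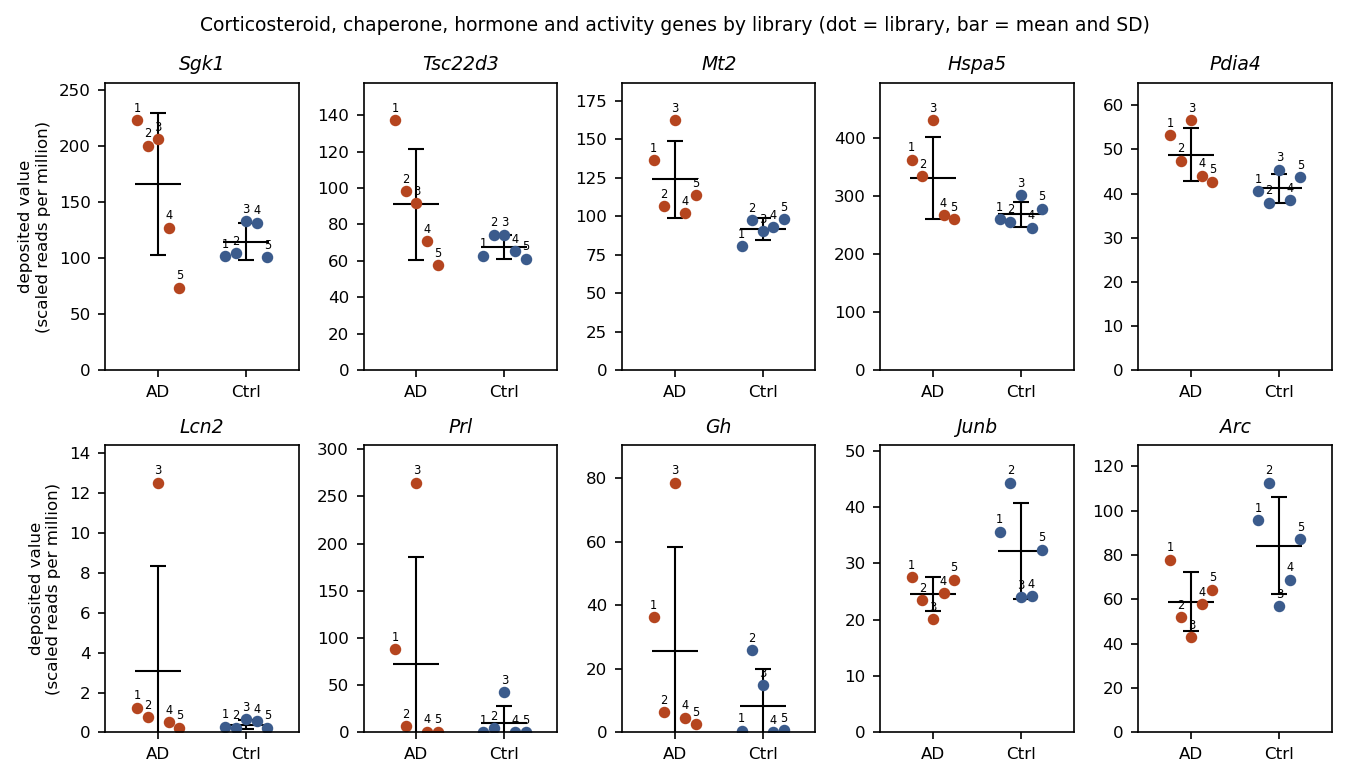
Scaled RPM of 10 genes in each library (y axis, from 0), AD left of Ctrl, with library numbers beside the points and the mean and SD of 5 libraries as a cross. AD libraries 1, 2 and 3 are highest for Sgk1, Tsc22d3, Hspa5 and Pdia4, AD library 3 alone for Lcn2, and Ctrl library 2 for Junb and Arc. Prl is highest in AD library 3, followed by AD library 1.

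Genes of tau biology were level or slightly lower in AD. Mapt averaged 468 ± 13.2 in AD and 481 ± 21.1 in Ctrl (SD, n = 5 each; log2 fold change -0.04, 95% interval -0.13 to 0.05, limma adjusted p = 0.975). App, the amyloid precursor protein gene, averaged 1903 ± 34.1 in AD and 2000 ± 64.7 in Ctrl (-0.07, limma adjusted p = 0.961). Of the 28 genes for tau, its kinases, phosphatases and partners 4 had a positive fold change and 24 a negative one, with a median of -0.06 beside -0.0028 for all genes. 2 of the 28 did not overlap, both with AD lower, beside 1.38% of all genes tested.

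Cdk5r1, which encodes the p35 activator of the tau kinase Cdk5, had 204, 206, 200, 214 and 216 in AD, against 222, 230, 224, 230 and 221 in Ctrl (log2 fold change -0.12 ± 0.04, SE, limma adjusted p = 0.961). Fyn, a tyrosine kinase that phosphorylates tau, had 121, 126, 122, 127 and 132 in AD, against 134, 140, 136, 140 and 135 in Ctrl (-0.13). Bin1, an endocytic protein and Alzheimer's disease risk gene, averaged 218 ± 5.53 in AD and 233 ± 13.6 in Ctrl (SD, n = 5 each), with overlap. Without any 1 library the median of the list stayed between -0.06 and -0.04, and without Ctrl libraries 2 and 4 together, a choice made after seeing the data, 22 of the 28 were still negative.

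Synaptic genes showed the same slight shift in level. 19 of 24 were negative (median -0.08), among them Snap25 (2201 ± 104 in AD and 2387 ± 159 in Ctrl, SD, n = 5 each), Rab3a (305 ± 6.84 in AD and 329 ± 22.8 in Ctrl) and Stx1a (-0.17), 3 proteins of vesicle release. The list score was 9.035 to 9.132 in AD, and 9.20 and 9.217 in Ctrl libraries 2 and 4. In the other Ctrl libraries it was 9.105 to 9.128, within the AD range. At 5 mpi all 24 had a positive fold change (median 0.07). Ubb, a ubiquitin gene, averaged 661 ± 28.7 in AD and 733 ± 45.9 in Ctrl (SD, n = 5 each; limma adjusted p = 0.961).

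Immediate early genes, which neurons switch on within minutes of firing, were lower in level in AD, 12 of 14 negative with a median of -0.19. Junb had 27.6, 23.5, 20.1, 24.7 and 27.1 in AD, against 35.7, 44.3, 23.98, 24.2 and 32.5 in Ctrl (log2 fold change -0.34 ± 0.14, SE, limma adjusted p = 0.961). Arc, a synaptic activity gene named after its values were seen, had 77.9, 51.9, 43.1, 57.9 and 64.5 in AD, against 95.8, 113, 56.9, 69.0 and 87.1 in Ctrl. Nr4a1 (-0.34) and Fos (-0.15) were also highest in Ctrl library 2. Without that library the median of the list was -0.07, and Fos turned to 0.05.

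All 16 cholesterol synthesis genes had a negative fold change (median -0.10), and none reached an unadjusted p under 0.05. Insig1, which holds back the sterol sensor, averaged 56.7 ± 5.65 in AD and 64.7 ± 6.83 in Ctrl, and Idi1, an isoprenoid isomerase, 21.1 ± 3.01 in AD and 24.7 ± 3.40 in Ctrl (SD, n = 5 each). At 1 mpi all 16 were negative as well (median -0.13), at 5 mpi 8 of 16 were. Opalin, a myelin paranode protein, averaged 25.5 ± 6.62 in AD and 33.0 ± 3.71 in Ctrl, in a list of 16 myelin genes with 5 positive (median -0.04). Hes5, a Notch target of neural progenitors, was lower at 2.98 ± 0.917 in AD and 4.29 ± 0.938 in Ctrl (limma adjusted p = 0.961).

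Glial and immune lists had positive medians, with an uneven part of the libraries. All 13 complement genes were positive (median 0.20): C3, the hub of the cascade, had 22.4, 11.0, 14.4, 17.1 and 6.28 in AD, against 9.37, 7.59, 10.3, 4.35 and 10.1 in Ctrl (log2 fold change 0.65 ± 0.45, SE, limma adjusted p = 0.961). C4b (0.31), C3ar1 (0.30) and C1qa (0.10) were higher in mean too, with overlap. Without Ctrl libraries 2 and 4, 11 of the 13 were positive, with a median of 0.09.

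All 22 interferon response genes were positive (median 0.20), none at an unadjusted p under 0.05. Irf9, a subunit of the interferon-activated complex ISGF3, averaged 12.1 ± 0.640 in AD and 10.2 ± 1.24 in Ctrl, and Stat2, its partner, 28.8 ± 2.21 in AD and 25.7 ± 1.46 in Ctrl (SD, n = 5 each). Ifit3 (0.28) and Ifit1 (0.32) were positive. The list score was 3.44, 3.37, 3.20, 3.44 and 3.40 in AD, against 3.40, 3.02, 3.38, 2.76 and 3.29 in Ctrl. Without Ctrl libraries 2 and 4, 12 of 22 were positive, with a median of 0.0043.

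Reactive astrocyte genes gave 17 of 18 positive (median 0.20). Gfap, the intermediate filament of astrocytes, averaged 608 ± 49.6 in AD and 556 ± 57.8 in Ctrl, Vim 90.1 ± 11.0 in AD and 71.3 ± 13.4 in Ctrl, and Serpina3n, a secreted protease inhibitor, 70.1 ± 10.7 in AD and 63.6 ± 4.56 in Ctrl (SD, n = 5 each). Emp1 (0.35) and Fbln5 (0.50) were the members with the smallest p-values, both at a limma adjusted p = 0.961. AD library 5 was low for this list, at 2.98 against 3.33 to 3.40 in AD libraries 1 to 4 and 2.84 to 3.22 in Ctrl.

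Microglial genes were close to level. Of 20 genes of disease-associated microglia 14 were positive (median 0.07), and 10 were without Ctrl library 4. Trem2, a lipid receptor of microglia, averaged 14.0 ± 1.07 in AD and 15.1 ± 1.53 in Ctrl (SD, n = 5 each), a log2 fold change of -0.10. Apoe was at 0.07, Cd68 at 0.04, Aif1 at 0.05 and Tyrobp at 0.07, the last 3 negative without Ctrl library 4, while Itgax was at 0.18 and Spp1 at 0.65. Cst7 and Clec7a, markers of that state, were highest in AD library 4, at 1.09 and 4.20, against at most 0.483 and 2.26 in the other AD libraries and 0.424 to 0.705 and 1.08 to 3.00 in Ctrl. Syk, a kinase downstream of Trem2, had 5.57, 4.57, 5.504, 6.01 and 5.33 in AD and 4.36, 4.27, 5.04, 3.73 and 5.23 in Ctrl (limma adjusted p = 0.961). The homeostatic list had 7 of 14 positive, and P2ry12, a purine receptor of resting microglia, was at -0.14.

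Markers of tissue beside the hippocampus also differed between libraries. Ctrl library 4, with the lowest interferon score (2.76), had a choroid plexus score of 6.27 and the lowest mural and meningeal score (3.22). All 15 choroid plexus genes were positive (median 0.24), at mean log2 list levels of 6.01 to 6.56 in AD and 5.22 to 6.42 in Ctrl, the lowest being Ctrl library 2, without which 8 of the 15 were positive (median 0.05). Ttr, its transthyretin, had 5446, 6764, 5323, 6536 and 5144 in AD, against 5721, 3335, 5248, 6418 and 7100 in Ctrl, and none of the defining markers was at 0. Prlr, the prolactin receptor, had 100, 103, 365, 86.4 and 71.8 in AD, against 91.2, 37.3, 96.4, 106 and 90.7 in Ctrl, its highest value lying in the library with the most Prl.

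Of the 15 mural and meningeal genes 14 were positive (median 0.22). Col1a2, a fibroblast collagen, had 40.9, 58.8, 30.6, 46.4 and 25.8 in AD, against 37.7, 17.8, 54.1, 9.17 and 37.5 in Ctrl, and Slc6a13, a transporter of meningeal cells, 8.37 to 18.2 in AD and 1.99 to 20.4 in Ctrl. Ctrl libraries 2 and 4 were the lowest of all 10, at list scores of 3.67 and 3.22 against 3.87 to 4.57 in AD and 4.21 to 4.52 in the other Ctrl libraries. Without Ctrl library 4 alone 7 of the 15 were positive, and without both 3 were, with a median of -0.17. Ctrl libraries 4 and 2 also scored lowest for complement (3.52 and 3.62), interferon (2.76 and 3.02) and reactive astrocyte genes (2.84 and 2.95). The part of mural and meningeal tissue in the complement, interferon and astrocyte lists was not tested.

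11 of 12 thalamus and habenula genes were positive (median 0.31), carried by AD libraries 2 and 5. Tcf7l2, a transcription factor of thalamic neurons, had 6.69, 18.7, 6.22, 5.95 and 15.8 in AD, against 8.86, 5.68, 5.23, 4.52 and 5.80 in Ctrl. Slc17a6, a glutamate transporter of subcortical neurons, had 27.9, 47.1, 24.5, 29.7 and 49.1 in AD, against 31.7, 30.7, 31.7, 15.4 and 19.2 in Ctrl. Red blood cell genes went the other way, 5 of 5 negative, with Hbb-bs highest in Ctrl libraries 1 and 5 (33.6 and 26.4) against at most 14.0 in AD. Its fold change, -0.30, was 0.08 without Ctrl library 1.

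**Figure D4:**
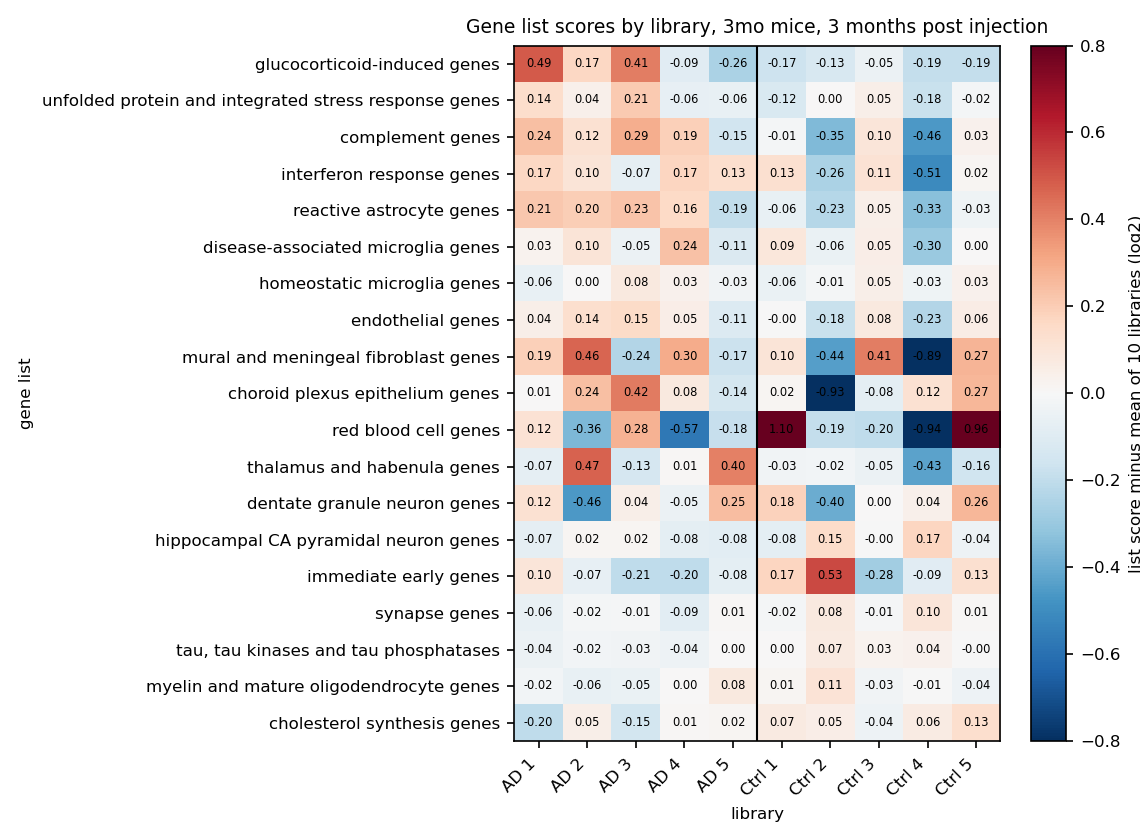
Mean log2 level of each gene list in each library minus its mean over the 10 libraries (colour and printed value, colour scale ending at 0.8 either way), AD libraries left of the black line and Ctrl libraries right of it. Glucocorticoid-induced genes are high in AD libraries 1, 2 and 3, and mural and meningeal genes are low in Ctrl libraries 2 and 4.

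The difference at 3 mpi was set against those at 1 and 5 mpi in the same model. No gene differed between the AD effect at 3 and at 1 mpi (0% of 19976, 1049 at an unadjusted p under 0.05, smallest limma adjusted p = 0.895) or between those at 3 and at 5 mpi (0%, 1087 and 0.903). For 3 minus 1 mpi the smallest p-values belonged to Mrps18b, a mitochondrial ribosomal protein (difference -0.33 ± 0.08, SE), Ten1, a telomere-capping subunit (-0.37 ± 0.09), and AW047730 (-0.63 ± 0.16) on the lower side, and to Mdm1 (0.35 ± 0.10), mt-Atp8 (0.68 ± 0.19), Uba6 (0.29 ± 0.08) and Usp53 (0.39 ± 0.12) on the higher side. For 3 minus 5 mpi they included Sdc2, a cell-surface proteoglycan (0.33 ± 0.07), Snhg8 (0.50 ± 0.14), Coq2 (-0.26 ± 0.06) and Zkscan4 (-0.48 ± 0.12). DESeq2 on recovered reads called Sdc2 for 3 minus 5 mpi (adjusted p = 0.0447) and no gene for 3 minus 1 mpi.

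Set beside the 12mo mice at 3 mpi, where limma called 0% of 20084 genes, some lists had like medians and others did not, with the 2 cohorts normalised apart and the difference between them not tested. Interferon genes had 0.20 in 3mo and 0.27 in 12mo mice (22 of 22 positive in both), complement genes 0.20 in 3mo and 0.16 in 12mo mice, and choroid plexus genes 0.24 in 3mo and 0.44 in 12mo mice. Glucocorticoid genes had 0.32 in 3mo and 0.02 in 12mo mice, and thalamus genes 0.31 in 3mo and -0.0022 in 12mo mice. In 3mo mice complement genes had a median of 0.23 at 1 mpi and -0.02 at 5 mpi, and interferon genes -0.08 at 1 mpi and -0.13 at 5 mpi.

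**Figure D5:**
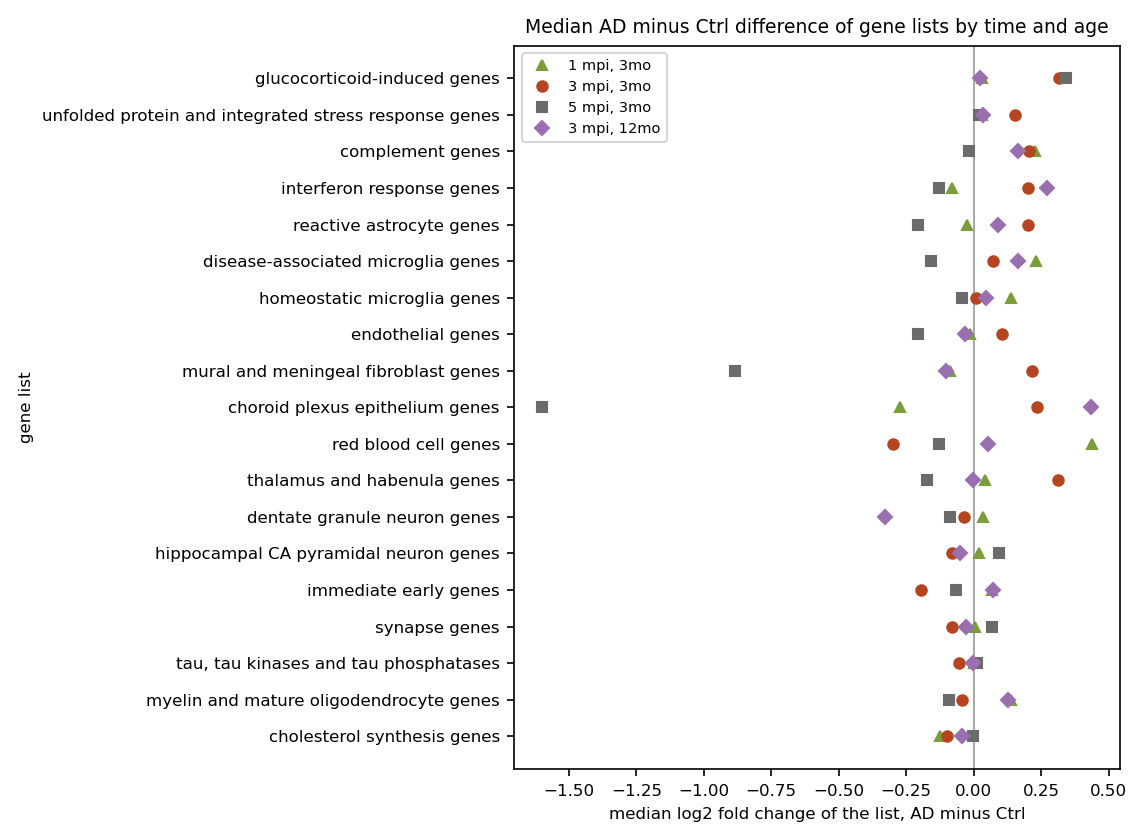
Median log2 fold change, AD minus Ctrl (x axis), of each gene list (y axis) at 1, 3 and 5 mpi in 3mo mice and at 3 mpi in 12mo mice. At 3 mpi in 3mo mice glucocorticoid genes stand at 0.32 and immediate early genes at -0.19, and the medians of choroid plexus genes run from -1.60 at 5 mpi to 0.44 in 12mo mice.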

How the data were processed

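Poly(A) RNA libraries of hippocampus were compared, and members and gene lists were chosen with earlier results of these data known. Per the submitters' processing notes STAR, Picard, edgeR and the build GRCm38 were used; for versions, annotation, the counting rule and strand use the answer is "not given in the sources used here". Deposited signal values of the 3mo and 12mo tables are not raw counts: each is an RPM divided by the scaling factor of its library, and 100% came out as whole reads within 0.01 read. The main test was limma 3.58.1 (R 4.3.3), with a mean-variance trend, on log2(value + 1) over all 29 libraries of the 3mo table with 6 group means. Genes passed edgeR's filterByExpr on recovered reads (19976 genes), and p-values were Benjamini-Hochberg adjusted over them with a threshold of 0.05. The 12mo table was fitted apart. edgeR 4.0.16 (quasi-likelihood) and DESeq2 1.42.0 on recovered reads, other scalings, filters, a pseudocount of 0.1, covariates and left-out libraries were alternatives. The fit was tested on simulated data. Named genes were drawn from the 12 smallest p-values and 8 largest non-overlapping differences each way, the first 3 and the 3 smallest p-values of each list, the mitochondrial, glucocorticoid and listed marker genes, 5 genes of each library standing apart, and the 5 smallest each way between times, mostly without gene models; exceptions are marked in the text. Depth gives counting error only, and no library was left out of the main test. Some items are not reported here.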

Additional observations from a re-analysis of the deposited data

Results flagged for a closer look

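In 24 of 342 groups of 5 values the highest or lowest library lay farther from the rest than Dixon's 95% limit. Chance flags about 1 in 20, or 17.1 groups. Some genes were named because a library stood apart or after their values were seen, so the 24 cannot be weighed against 17.1. 9 of the 24 were in AD library 3. Over all genes tested, on the log2 scale, Ctrl library 4 passed the limit in 1.93%, Ctrl library 2 in 1.88% and AD library 3 in 1.69%. No explanation was tested for any of the 24.

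AD library 3 was high for Lcn2 (12.5, against 0.232 to 1.24 in the other AD libraries), Prlr (365, against 71.8 to 103), Gpx3, an extracellular antioxidant enzyme (31.8, against 6.84 to 8.62), Fam129a (9.60, against 6.96 to 7.14) and Slc43a3 (3.14, against 2.54 to 2.69). It was low for Flywch2 (2.54, against 3.13 to 3.30). Its mean log2 list scores stood apart for histone genes (2.86, against 2.27 to 2.40), circadian genes (5.69, against 5.88 to 5.94) and interferon genes (3.20, against 3.37 to 3.44).

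AD library 4 was high for the microglial genes Cst7 (1.09), Clec7a (4.20) and Tyrobp (13.5, against 10.7 to 11.5) and low for Mapt (444, against 471 to 475). AD library 5 was low for Emp1 (6.06, against 8.10 to 8.34) and the reactive astrocyte score (2.98).

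Ctrl library 4 was low for Cd68 (5.69, against 8.18 to 8.82 in the other Ctrl libraries), Tyrobp (8.53, against 11.3 to 12.2), Apoe (1290, against 1540 to 1580) and Cdkn1a (5.56, against 7.15 to 7.63). Ctrl library 2 was high for Mapt (518, against 466 to 475), Tsta3 (20.2, against 17.2 to 17.6) and Cdc42ep2 (10.8, against 8.38 to 9.02) and low for Prlr (37.3, against 90.7 to 106). Ctrl library 3 was high for Prl (42.3, against 0.0424 to 4.76).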

How the results depend on the processing

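limma called 0 genes for AD against Ctrl at 3 mpi under every scaling, filter, pseudocount, covariate and left-out library tried, and edgeR's quasi-likelihood test called 0 (902 at an unadjusted p under 0.05). DESeq2 called 1 gene there (mt-Atp8, log2 fold change 0.81) and 1 for 3 minus 5 mpi (Sdc2). Genes at an unadjusted p under 0.05 numbered 910 with all 29 libraries and 2025 with only the 10, and 1733 of 36515 without a filter. The count of non-overlapping genes ran from 198 to 360 with AD higher and from 339 to 567 with AD lower when 1 library was left out, since fewer samples overlap less. Leaving out 1 library, the fold change ran from -0.048 to 0.11 for mt-Atp6, from -0.018 to 0.083 for mt-Nd1, from -0.13 to 0.022 for Cst7, from -0.71 to 0.076 for Hbb-bs, from -0.35 to 0.054 for Fos, from -0.067 to 0.20 for Ttr, from -0.060 to 0.085 for Cd68, from -0.0071 to 0.11 for Aif1 and from -0.012 to 0.10 for Tyrobp. Without Ctrl libraries 2 and 4, chosen after seeing the data, it was -0.012 for Ifit1, -0.048 for Cd68, -0.034 for Aif1, -0.041 for Ttr, -0.13 for Col1a2 and -0.26 for Slc6a13. With a choroid plexus covariate Ttr was at -0.28. The cause of these reversals was not tested. Scaling moved the share of genes above 0 between 48.7% and 51.9%. The split by direction at an unadjusted p under 0.05 (limma) moved too. It was 431 higher and 479 lower in the main fit, and 460 and 436 with TMM scaling. With relative log expression scaling it was 491 and 402, and with a stricter filter 249 and 393.

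Same-numbered AD and Ctrl libraries share only a number: their deviations correlated at -0.01, 0.0099, 0.20, -0.12 and -0.019, and with the replicate block limma called 0 genes (1967 at an unadjusted p under 0.05).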

Other observations

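Other gene groups gave the following values between AD and Ctrl libraries at 3 mpi. Of 8 long non-coding RNAs retained in the nucleus 7 were positive (median 0.17), at a list score of 7.19 to 7.46 in AD and 7.03 to 7.26 in Ctrl, and 8 of 9 histone genes were positive (median 0.09). Interneuron genes had 3 of 12 positive (median -0.07), CA pyramidal genes 1 of 11 (median -0.08) and dentate granule genes 5 of 12 (median -0.03), the last lowest in AD library 2 (4.93) and Ctrl library 2 (4.99). Lysosome and autophagy genes had 11 of 20 positive (median 0.01), proteostasis genes 8 of 16 (median 0.0011), and astrocyte identity genes 7 of 12 (median 0.01). No gene of these lists passed limma's test.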
